A study of Mus musculus with 6 samples.

Results

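The insulin-like growth factor (IGF) axis is described here by 10 genes, taken by symbol from the 16854 genes of the deposited table: the ligands Igf1 and Igf2, the receptors Igf1r and Igf2r, and the binding proteins Igfbp2, Igfbp3, Igfbp4, Igfbp5, Igfbp6 and Igfbp7. All 10 were present, and all 10 passed the filter on low values (a normalised count of at least 10 in at least 3 libraries). The cells were C2C12, a mouse myoblast line that fuses into myotubes when serum is reduced. The knockdown cells expressed a short hairpin RNA against Adamtsl2, a secreted glycoprotein of the matrix, and the control cells are labelled as treated with a scramble. Both sets were put into 2% horse serum at confluence and harvested on day 3 for sequencing of poly(A)-selected RNA, with 3 libraries per group. The hairpin against Adamtsl2 was stably expressed. No source used here says whether a group is 1 clone or a pool, or whether its libraries came from separate cultures. The p-values therefore measure the spread between these libraries, which may be technical.

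IGF1 and IGF2 are small secreted hormones that bind the receptor tyrosine kinase IGF1R, which signals through docking proteins to PI3K, Akt and mTOR. IGF2R carries IGF2 to lysosomes and does not signal as a kinase. The binding proteins hold the ligands outside the cell, extend their life and set how much reaches the receptor, and proteases release the ligand by cutting them. Myoblasts in low serum are known to make their own IGF2, which promotes differentiation, and IGFBP5 is the binding protein known for its rise as myoblasts differentiate.

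Knockdown cells held much less Igf2 and Igfbp5 RNA and much more Igfbp3 RNA than control cells. Igf2 was 36.8-fold lower, Igfbp5 was 357-fold lower and Igfbp3 was 1653-fold higher. Igfbp6 and Igf1r also rose, and Igfbp2, Igfbp4 and Igf1 fell. Of the 10 genes, 3 rose and 5 fell at an adjusted p under 0.05 (limma, Benjamini-Hochberg over 16245 genes), while 45.2% of all tested genes passed, 21.7% as higher and 23.5% as lower. The median log2 change was -1.07 over the 10 genes and -0.0013 over all tested genes. Changes of at least 16-fold past the threshold were found for 3 of the 10, against 6.08% of all tested genes. Knockdown and control values did not overlap for 9 of the 10, as for 62.6% of all tested genes. In the authors' deposited table, 8 of the 10 had an adjusted p under 0.05. The share of all genes under that threshold there was not counted. DESeq2 on reads recovered from the deposited values called 4343 higher and 4118 lower of the 16245 tested genes.

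**Figure D1:**
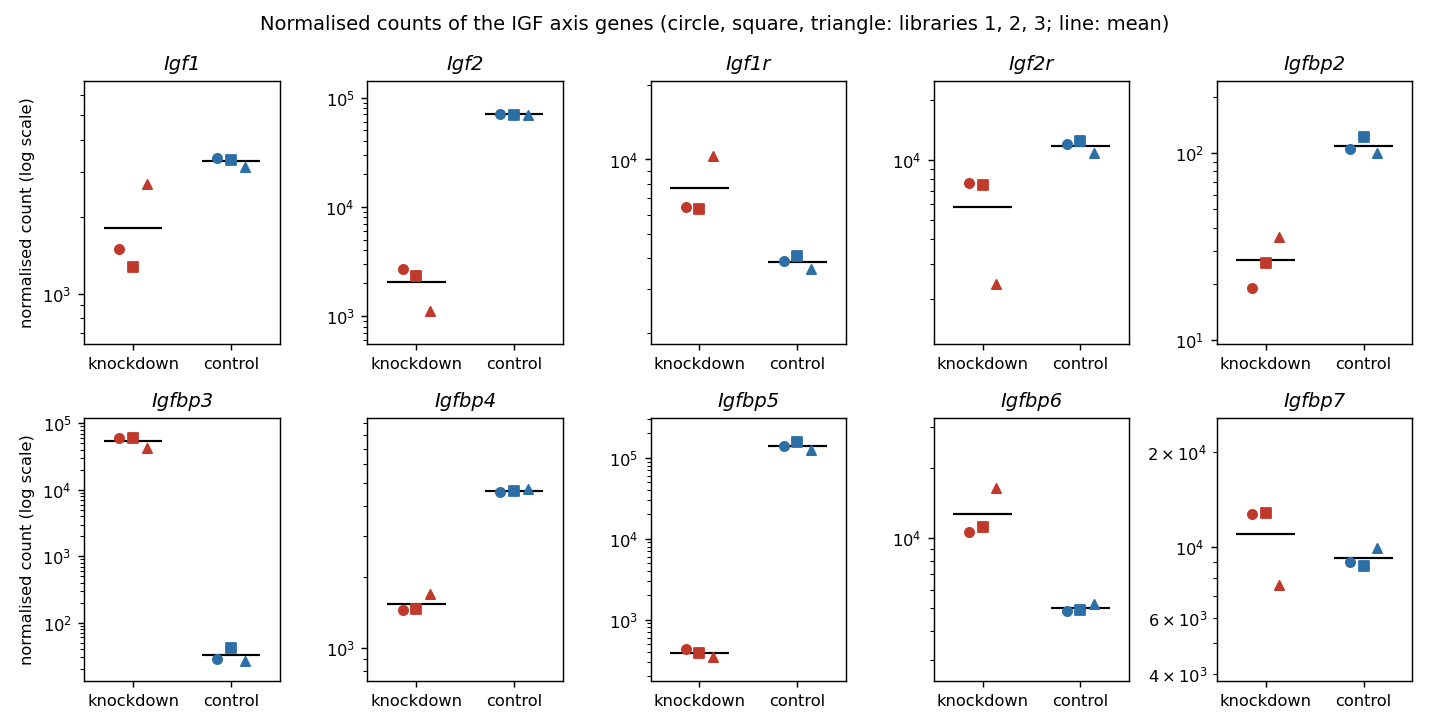
Normalised count of each of the 10 genes (y axis, log scale) in 3 knockdown libraries (red, left) and 3 control libraries (blue, right), with circles, squares and triangles for libraries 1, 2 and 3 and a line at the group mean. The groups overlap only for Igfbp7, and the triangle of knockdown library 3 lies farthest from the other knockdown libraries for Igf2r (0.313 times their mean), Igf2 (0.443 times) and Igf1 (1.94 times).

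Reads recovered from the deposited values totalled 37346439 to 50329438 per library, and 1 read was worth 0.829 to 1.26 normalised units. Adamtsl2 was at 23.2, 21.7 and 7.83 in the knockdown libraries, against 1325, 1266 and 1307 in the controls. Knockdown library 3 stood apart: its log2 values correlated with those of the other knockdown libraries at 0.904 and 0.907 across genes, while these libraries correlated with each other at 0.995 and the controls at 0.992 to 0.994. Malat1, a nuclear noncoding RNA, took 2.83% of its reads and 0.302 to 0.515% of the reads elsewhere. Of all tested genes 23.5% were lower and 21.7% higher. Of 15 markers of myoblasts and myotubes, 14 were lower in the knockdown and 1 (Myf5) was higher. Their summed normalised count was 11906 to 13348 in knockdown libraries and 1225570 to 1272740 in control libraries. Among them, log2 changes were -3.75 for the determination factor Myod1, -6.36 for myogenin (Myog), -8.57 for embryonic myosin (Myh3) and -9.96 for muscle creatine kinase (Ckm); Pax7 was at 0 in 2 knockdown libraries. Of 11 markers of fibroblasts and mesenchymal progenitors tested, 7 were higher and 2 (Pi16 and Col15a1) lower. Their sums were 157509 to 219784 in knockdown libraries and 21232 to 22206 in controls. Among macrophage markers 2 of 5 were higher and 1 lower, with sums of 1054 to 1374 in knockdown and 236 to 281 in control libraries; Cd14 was the most abundant, and Itgam was at 0 in 2 knockdown libraries. Of 7 adipocyte markers listed, only Pparg and Cebpa were tested, and both were higher (sums of 2855 to 4632 in knockdown and 788 to 855 in control libraries). Of 3 endothelial markers tested 1 was higher and 2 lower (sums, with the untested Pecam1, of 34.0 to 159.9 in knockdown and 241 to 302 in control libraries), with Cldn5 at 0 in 2 knockdown libraries. The listed adipocyte markers Adipoq, Fabp4, Plin1, Lep and Cidec were not matched by symbol and have no value here. The same holds for the mesenchymal markers Dpp4, Thy1 and Tcf21, the macrophage markers Ptprc and Adgre1, and the endothelial markers Cdh5, Kdr and Emcn. The part of these shifts in the results below was not tested. In bulk RNA, fewer cells of a type and less RNA per cell cannot be told apart.

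The ligands fell together, but by very different amounts. Igf2 (ENSMUSG00000048583, GRCm38 chromosome 7, 142650766 to 142666816, minus strand) had normalised counts of 2691, 2306 and 1107 in the knockdown libraries, against 70818, 69826 and 69589 in the controls. Every knockdown value was far below every control value, and knockdown library 3 was the lowest. Its log2 change was -5.20 ± 0.34 (adjusted p = 1.07e-04, limma). Here and below, ± after a log2 change is its SE, with 3 libraries in either group. Igf1 (chromosome 10, 87858265 to 87937042, plus strand) had 1491, 1269 and 2675 in knockdown libraries and 3388, 3342 and 3129.6 in controls. The groups did not overlap, and knockdown library 3 lay nearest to the controls. The log2 change of Igf1 was -0.94 ± 0.28 (adjusted p = 0.0384, limma). With each library left out in turn it passed in 1 of 6 fits, the one without knockdown library 3, where the change was -1.25, and its adjusted p ranged from 8.92e-08 to 0.116 (limma). It also missed with edgeR on recovered reads (adjusted p = 0.069). For every gene here an exact two-sided permutation test of 3 against 3 values cannot give a p below 0.1.

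Per kilobase of exon, which allows genes to be compared, Igf2 exceeded Igf1 in all libraries but knockdown library 3. The ratio of Igf2 to Igf1 was 3.12, 3.15 and 0.716 in the knockdown libraries, against 36.2, 36.2 and 38.5 in the controls. Igf2 and Igf1 together came to 538 ± 78.9 normalised counts per kb in the knockdown and 12577 ± 125 in the control (SD, n = 3 each). Ordered by level per kb among 16812 genes with a length, Igf2 stood at position 5258 in the knockdown and 178 in the control. Igf1 stood at 7798 in the knockdown and 5616 in the control. These lengths are the union of all annotated exons.

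H19, the imprinted noncoding RNA that lies 72.6 kb from Igf2 and shares its enhancers, was at 14099 ± 3168 in the knockdown and 216128 ± 1234 in the control (SD, n = 3 each), a log2 change of -3.96 ± 0.22. Igf2os, the antisense transcript of the Igf2 locus, was at 7.41 ± 5.16 in the knockdown and 3992 ± 241 in the control (-9.12 ± 0.52). It shares 98 exonic bases with Igf2, and because no strand setting is given, reads there cannot be assigned to either. GENCODE M21 also lists Gm49394, a same-strand model that covers 62.8% of the exonic bases of Igf2. Gm49394 is not among the genes with deposited values. No source used here says how reads in those bases were counted, so the level of Igf2 is uncertain to that extent. Among the other 9 genes, the longest coding transcript shared no 50-base stretch with transcripts of other genes read in their own sense, except for 2% of such stretches in Igfbp4.

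**Figure D2:**
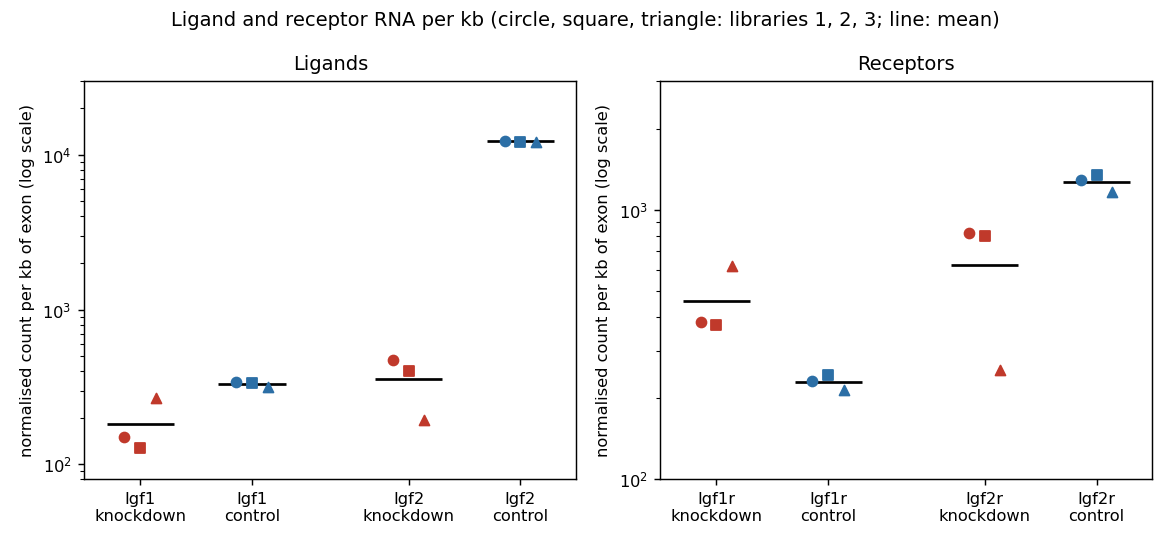
Normalised count per kb of exon (y axis, log scale) of the ligands Igf1 and Igf2 (left) and the receptors Igf1r and Igf2r (right) in knockdown (red) and control (blue) libraries; circles, squares and triangles are libraries 1, 2 and 3 and lines are means. Igf2 averaged 356 per kb in the knockdown and 12245 in the control, and the Igf2r value of knockdown library 3 (254) lies below those of the other knockdown libraries (823 and 799.7).

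Igf1r, the signalling receptor, rose. Igf1r (chromosome 7, 67952827 to 68233668, plus strand) had 6458, 6288 and 10352 in knockdown libraries, against 3893, 4101 and 3604 in controls. All knockdown values lay above all control values, and knockdown library 3 was the highest. Igf1r differed by 0.96 ± 0.22 on the log2 scale (adjusted p = 0.0141, limma), with adjusted p from 1.26e-06 to 0.0622 when 1 library was left out and 4 of 6 such fits past the threshold; the 2 that missed left out control library 1 or 3.

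Igf2r, the receptor that clears IGF2, did not pass. Igf2r (chromosome 17, 12682406 to 12769664, minus strand) was at 7661, 7444 and 2367 in knockdown libraries, against 11992, 12470.3 and 10832 in controls. All knockdown values were below all control values, with knockdown library 3 at 0.313 times the mean of the other knockdown libraries. The log2 change was -1.19 ± 0.47, with a 95% interval of -2.34 to -0.05 and an adjusted p of 0.0839 (limma). Without knockdown library 3 it was -0.64 and passed (adjusted p = 4.87e-06, limma). Airn, an antisense RNA that overlaps Igf2r without sharing exonic bases, was at 327 ± 69.0 in the knockdown and 185 ± 2.79 in the control (SD, n = 3 each), a log2 change of 0.80 ± 0.20. Per kb of exon, Igf2r RNA was 2.14, 2.14 and 0.412 times that of Igf1r in the knockdown libraries, against 5.56, 5.49 and 5.42 times in the controls. The order of the receptors was thus inverted in knockdown library 3 alone. This ratio depends on gene length. With the longest coding transcript it averaged 1.11 ± 0.709 in the knockdown and 3.91 ± 0.0479 in the control (SD, n = 3 each).

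**Figure D3:**
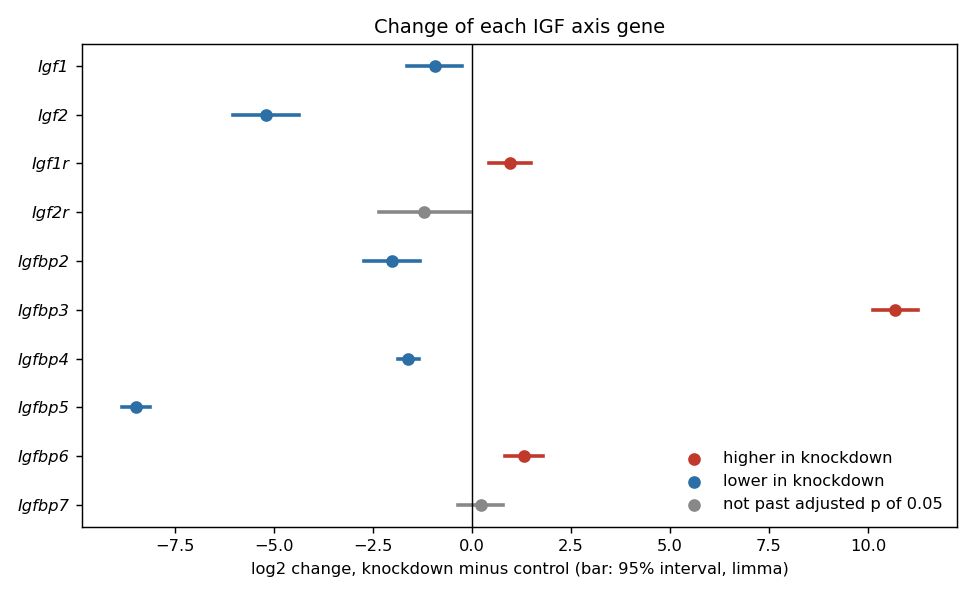
Log2 change of each gene, knockdown minus control (x axis), with its 95% interval from limma; red is higher and blue lower at an adjusted p under 0.05, and grey did not pass. Igfbp3 at 10.69 and Igfbp5 at -8.48 lie farthest from 0, and Igf2r and Igfbp7 are grey.

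The binding proteins with the largest changes were Igfbp3 and Igfbp5, in opposite directions. Igfbp3, the main IGF carrier in serum, lies on chromosome 11 (7206086 to 7213923, minus strand). It had 60737, 60046 and 42759.7 in knockdown libraries, against 28.3, 41.7 and 26.6 in controls. The control libraries together held 87 reads of it, and the knockdown libraries 183296. The log2 change was 10.69 ± 0.23 (adjusted p = 3.68e-06, limma). By level per kb, it stood at position 117 of 16812 genes in the knockdown and at 13950 in the control.

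Igfbp5 lies on chromosome 1 (72857932 to 72874884, minus strand). It had 436, 389.8 and 349 in knockdown libraries, against 138539, 156574 and 125479 in controls. The knockdown values lay close together, and the highest of them was far below the lowest control. The log2 change was -8.48 ± 0.15 (adjusted p = 3.68e-06, limma). By level per kb it stood at position 10766 in the knockdown and 87 in the control. Leaving out any 1 library kept the call of both genes, with adjusted p of at most 2.27e-04 (limma).

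The sequence before the start site is shown for these genes and for Igf2, the other gene with a change above 16-fold, so that the promoters of genes that moved apart can be compared. Each line gives the 250 bases upstream of the start site (RefSeq, GRCm38.p6, 5′ to 3′ on the gene's strand). Capitals mark 3 motifs on either strand: the E-box CANNTG, bound by myogenic factors among others; the GC box GGGCGG, bound by Sp1; and CATTCC, the core of the M-CAT element bound by TEAD factors.
Igfbp3, chr11:7213924-7214173, minus strand: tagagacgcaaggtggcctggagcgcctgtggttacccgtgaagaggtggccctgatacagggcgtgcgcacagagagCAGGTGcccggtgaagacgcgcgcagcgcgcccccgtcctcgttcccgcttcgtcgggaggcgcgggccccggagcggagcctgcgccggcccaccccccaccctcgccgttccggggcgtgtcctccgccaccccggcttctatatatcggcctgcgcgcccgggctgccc
Igfbp5, chr1:72874866-72875115, minus strand: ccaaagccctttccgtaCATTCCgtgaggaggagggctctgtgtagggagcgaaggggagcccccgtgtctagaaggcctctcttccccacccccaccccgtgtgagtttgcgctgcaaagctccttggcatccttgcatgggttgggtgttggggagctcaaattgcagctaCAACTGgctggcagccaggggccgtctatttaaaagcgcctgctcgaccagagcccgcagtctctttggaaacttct
Igf2, the most downstream of 4 start sites, chr7:142657497-142657746, minus strand: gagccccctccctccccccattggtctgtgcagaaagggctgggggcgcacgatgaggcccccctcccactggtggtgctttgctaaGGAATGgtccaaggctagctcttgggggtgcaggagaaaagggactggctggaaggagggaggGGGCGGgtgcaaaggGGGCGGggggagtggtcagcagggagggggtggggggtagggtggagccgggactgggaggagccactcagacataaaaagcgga

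Igfbp3 and Igfbp5 each held 1 E-box, CAGGTG starting at base -172 and CAACTG starting at base -77, counted back from the start site. Igfbp5 also held a CATTCC at base -233. The Igf2 window shown held no E-box, though the most upstream of the other Igf2 windows held E-boxes at bases -213 and -161. The window shown held GC boxes at bases -100 and -85 and CATTCC on the opposite strand at base -163. Counts per gene cannot show which of the 4 Igf2 start sites was used.

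Across the 14 windows of the 10 genes, the E-box was found in 9, or 64.3%, against 66.2% of all 32851 promoter windows of that length. The stricter form CAGCTG, which is part of the E-box count, was found in the Igf1 window alone (13% of all windows). The GC box was found in 6 windows, or 42.9%, against 32.7% of all windows. CATTCC was found in 4 windows, 3 of Igf2 and 1 of Igfbp5, against 12.6% of all windows. The TCF/LEF core CTTTGA, bound by the factors of Wnt signalling, was found for Igf1, Igf1r and Igf2 (13.8% of all windows). The FoxO core GTAAACA was found in 0 of the 14, against 3.17% of all windows, and TATAAA for Igfbp4 and Igfbp6 (12.4% of all windows). These matches describe letters in the windows and are not evidence of binding.

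Igfbp6, which prefers IGF2 as its ligand, rose. Igfbp6 (chromosome 15, 102144362 to 102149511, plus strand) had 10582, 11117 and 16482 in knockdown libraries, against 4863, 4912 and 5210.3 in controls. The groups did not overlap, and knockdown library 3 was again the highest. Igfbp6 differed by 1.32 ± 0.20 on the log2 scale (adjusted p = 0.00254, limma).

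Igfbp4, best known as an inhibitor of IGF action, fell. Igfbp4 (chromosome 11, 99041244 to 99054392, plus strand) had 1456, 1461 and 1695 in knockdown libraries, against 4577, 4641 and 4731 in controls. The groups did not overlap, and knockdown library 3 lay within 1.16 times the mean of the other knockdown libraries. The log2 change was -1.60 ± 0.11 (adjusted p = 1.38e-04, limma).

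Igfbp2, which lies 5.46 kb from Igfbp5 on chromosome 1 (72824503 to 72852474, plus strand), was the least abundant binding protein of the controls per kb after Igfbp3. Its values were 19.1, 25.9 and 35.8 in knockdown libraries, against 106, 121 and 99.8 in controls. These rest on 86 reads in the knockdown and 298 in the control. Igfbp2 fell by 2.02 on the log2 scale, with an SE of 0.29 (adjusted p = 0.00218, limma).

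Igfbp7, a related secreted protein with weak IGF binding, did not pass. Igfbp7 (chromosome 5, 77349240 to 77408041, minus strand) was at 12700.3, 12780.3 and 7585 in knockdown libraries, against 8966, 8714 and 9966 in controls. Knockdown libraries 1 and 2 were above all controls, and library 3 was below them all. The log2 change was 0.22 ± 0.23, with a 95% interval of -0.35 to 0.79 and an adjusted p of 0.482 (limma). Without knockdown library 3 it was 0.47 and passed (adjusted p = 4.24e-05, limma). It shares 85 exonic bases, 7.03% of its length, with the opposite-strand gene Polr2b, where unstranded reads cannot be assigned.

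The RNA of the binding proteins with high affinity, Igfbp2 to Igfbp6, was made up of different genes in the 2 groups. Their sum was of similar size with the union of exons as length, but its mean was larger in the knockdown with the longest coding transcript. Per kb of exon the sum was 29334, 29591 and 28945 in knockdown libraries, against 28543, 31617 and 26712 in controls, and the groups overlapped with these lengths. Igfbp3 made up 59.4% ± 10.6 of this sum in the knockdown and 0.0352% ± 0.0060 in the control (SD, n = 3 each, as for the shares that follow). Igfbp5 made up 0.222% ± 0.0236 in the knockdown and 80.5% ± 2.14 in the control. The share of Igfbp6 was 39.1% ± 10.5 in the knockdown and 15.6% ± 1.80 in the control. Igfbp4 contributed 1.19% ± 0.118 in the knockdown and 3.66% ± 0.344 in the control, and Igfbp2 less than either. In knockdown library 3 Igfbp6 (51.2%) exceeded Igfbp3 (47.2%), while in knockdown libraries 1 and 2 Igfbp3 led with 66.2 and 64.8%. That order in library 3 holds only with the union of exons. With the longest coding transcript Igfbp3 led there too, and the knockdown shares averaged 65.1% ± 10.1 for Igfbp3 and 33.5% ± 9.92 for Igfbp6. The sum also depends on gene length: with the longest coding transcript in place of the union of exons it was 34449.5 ± 1249 in the knockdown and 29145 ± 2481 in the control. Every knockdown library then lay above every control library. The sum of these binding proteins was 55.1 ± 7.62 times that of the ligands in the knockdown and 2.30 ± 0.197 times in the control. With the longest coding transcript it was 50.5 ± 4.87 times in the knockdown and 1.90 ± 0.162 times in the control. These sums are levels of RNA, not of protein, and were not tested.

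**Figure D4:**
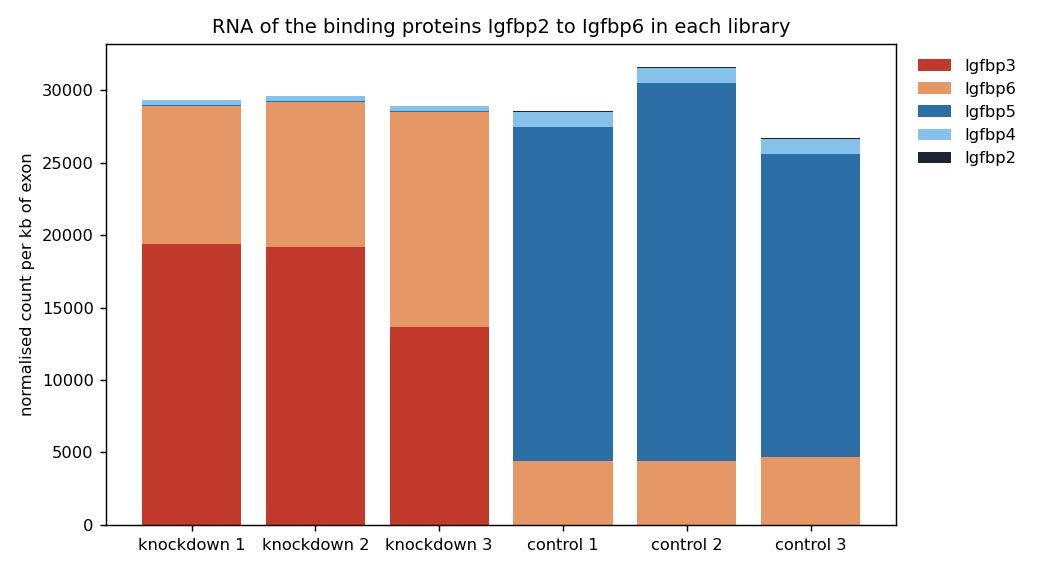
Normalised count per kb of exon (y axis, from 0) of Igfbp2 to Igfbp6, stacked, in each of 3 knockdown libraries (left) and 3 control libraries (right). The bars end between 26712 and 31617; Igfbp3 (dark red) and Igfbp6 (orange) fill nearly all of the knockdown bars, and Igfbp5 (dark blue) fills 78.2 to 82.5% of the control bars.

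Knockdown library 3 differed from the other knockdown libraries in most of these genes, and not always in the direction of the control. It held 1.94 times as much Igf1 and 1.59 times as much Igfbp2 as their mean, and 0.708 times as much Igfbp3, each nearer to the controls. It held 1.62 times as much Igf1r, 1.52 times as much Igfbp6, 0.443 times as much Igf2 and 0.313 times as much Igf2r, each farther from the controls. Without this library all 10 genes passed, 4 higher and 6 lower, as did 78.5% of all tested genes.

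Genes that act with the axis were counted from 5 lists by role, 59 of whose 68 genes were tested. Of these, 13 were higher, 17 lower and 29 not past the threshold, with a median log2 change of -0.10; of all tested genes 45.2% passed, 21.7% as higher and 23.5% as lower, with a median of -0.0013. Without knockdown library 3, 30 were higher and 27 lower, beside 78.5% of all tested genes past the threshold. With any 1 control library left out, 10 were lower and 9 or 10 higher. Of all 16245 tested genes, 2648 to 2778 were then lower and 2443 to 2608 higher.

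Receptors of related hormones were higher in both cases tested, as were 21.7% of all tested genes. The growth hormone receptor Ghr, through which growth hormone induces Igf1 in liver, was at 14970.3 ± 714 in the knockdown and 1935 ± 49.3 in the control (SD, n = 3 each), a log2 change of 2.95 ± 0.11. The insulin receptor Insr rose by 0.70 ± 0.20 (adjusted p = 0.0309, limma), and passed with a library left out only where that was knockdown library 3 (adjusted p from 4.03e-07 to 0.112). The insulin gene Ins2 had 66 reads in the knockdown and 16 in the control and was not tested. Igfbp1, Igfbpl1, Igfals, Insrr and Ins1 were looked up but not matched by symbol, so they were not analysed here.

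Of 7 tested genes among the proteases of binding proteins and their inhibitors, 3 were higher and 2 lower, with a median log2 change of 0.41. Over all tested genes 21.7% were higher and 23.5% lower. Pappa, whose product cuts IGFBP4, rose by 2.09 ± 0.25, with values of 346, 306 and 258 in knockdown libraries against 91.5, 54.3 and 68.4 in controls. Its relative Pappa2, which cuts IGFBP3 and IGFBP5, rose by 3.78 ± 0.55, or by 4.43 without knockdown library 3. Stc2, a stanniocalcin that inhibits PAPP-A, fell to 4.15, 2.51 and 16.8 in knockdown libraries, against 184, 237 and 206 in controls. Its log2 change was -4.93 ± 0.62, or -5.62 without knockdown library 3 and -4.22 with a pseudocount of 5. Adam12, a protease known in human to cut IGFBP3 and IGFBP5, fell (-4.78 ± 0.33). The matrix protease Adamts1 rose by 1.41 ± 0.33 (adjusted p = 0.0151, limma), but did not pass when any 1 control library was left out (adjusted p up to 0.0613). Htra1 (0.41 ± 0.14) and Adam9 (-0.01 ± 0.36) did not pass.

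Among the 3 Igf2 mRNA-binding proteins, which bind Igf2 and other messenger RNAs, 1 was higher and 2 did not pass. Of all tested genes 45.2% passed. Igf2bp2 had 1171, 1138 and 1331 in knockdown libraries, against 41.4, 35.4 and 41.8 in controls, with no overlap. Its log2 change was 4.91 ± 0.16 (adjusted p = 1e-05, limma). Igf2bp3 (1.06 ± 0.40, adjusted p = 0.0754, limma) had 70.5, 78.6 and 153 in knockdown libraries, against 54.5, 30.3 and 54.2 in controls, with no overlap. Igf2bp1 (-1.36 ± 0.95, adjusted p = 0.293, limma) had 9.12, 3.35 and 59.2 in knockdown libraries, against 29.4, 44.2 and 31.4 in controls, and the groups overlapped.

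Among 13 adaptors and inhibitors at the receptors, 3 were higher, 2 lower and 8 not past the threshold, with a median log2 change of 0.22. Over all tested genes 21.7% were higher and 23.5% lower. The docking proteins Irs2 and Gab1 rose by 2.42 ± 0.20 and 2.30 ± 0.12. Irs1 did not pass (0.73 ± 0.58), with 10079, 8984 and 2270.5 in knockdown libraries against 3819, 3808 and 3094 in controls. The related inhibitory adaptors Grb14 and Grb10 changed in opposite directions. Grb14 had 1569, 1628 and 1172 in knockdown libraries against 40.3, 40.4 and 58.9 in controls, a log2 change of 4.95 ± 0.23. Grb10, an imprinted gene, had 0.829, 0 and 33.5 in knockdown libraries against 305, 277 and 304 in controls, a log2 change of -6.22 ± 1.30. The size of that change depended on the fit: it was -7.77 without knockdown library 3, -5.22 without knockdown library 2, -4.85 with a pseudocount of 5, and on recovered reads -4.71 with edgeR and -4.66 with DESeq2. The phosphatase Ptpn11 fell (-1.40 ± 0.37, adjusted p = 0.0246, limma), but did not pass when any 1 control library was left out (adjusted p up to 0.0844).

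Of 34 genes of PI3K, Akt and mTOR signalling, 4 were higher, 13 lower and 17 not past the threshold, with a median log2 change of -0.56, beside 21.7% of all tested genes higher and 23.5% lower. Pik3r1, the main regulatory subunit of PI3K, rose by 2.41 ± 0.13, and Deptor, an inhibitor of mTOR, by 1.80 ± 0.32. Pik3r3 (0.53 ± 0.13) and the kinase Gsk3b (0.47 ± 0.13) passed with 6 libraries, but with a library left out Pik3r3 passed only without knockdown library 3 or control library 2, and Gsk3b only without knockdown library 3 (adjusted p up to 0.0848 and 0.117). Rheb, which activates mTOR, fell (-0.98 ± 0.13), as did the S6 kinase Rps6kb2 (-0.99 ± 0.16) and the forkhead factor Foxo6 (-3.03 ± 0.42). The lipid phosphatase Inppl1 had 5895, 5464 and 1422 in knockdown libraries, against 31182, 31075 and 30439 in controls. Its log2 change was -3.11 ± 0.55, or -2.44 without knockdown library 3. The kinases Akt1 and Akt2, named after their values were seen, fell (-1.23 ± 0.39 and -1.41 ± 0.39), and neither passed when any 1 control library was left out (adjusted p up to 0.125 and 0.0907). Akt1 also missed with edgeR on recovered reads (adjusted p = 0.0559).

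**Figure D5:**
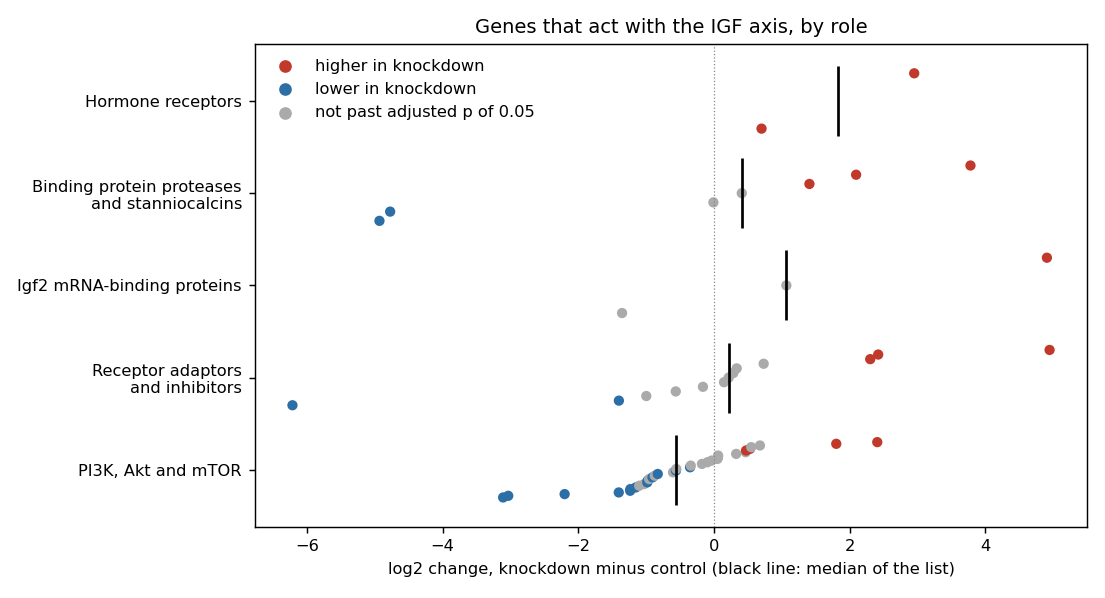
Log2 change, knockdown minus control (x axis), of each tested gene of 5 lists by role (rows), with red for higher, blue for lower and grey for not past an adjusted p of 0.05 and a black line at the median of each list. The medians run from -0.56 for PI3K, Akt and mTOR to 1.82 for the hormone receptors, which are 2 genes.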

How the data were processed

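RNA of 6 C2C12 libraries was analysed. Per the submitters' processing notes, the authors used the build GRCm38, Trimmomatic 0.36, DESeq2, and featureCounts from Subread 1.5.2; no source used here states how reads were aligned, which annotation and strand setting were used, or which DESeq2 was run. The deposited table held a normalised signal per gene and library, which is a gene count divided by a size factor, and, per the file headers, a log2 fold change and p-value that the authors computed. In all 6 libraries 100% of the values equalled a whole number of reads (tolerance 0.01 reads), and these reads were recovered.

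The main test was limma 3.58.1 (R 4.3.3) on log2(value + 1) with a mean-variance trend, two-sided, without block or covariates, on the 16245 genes that reached 10 in 3 or more libraries. Benjamini-Hochberg adjustment covered all of them, with a threshold of 0.05. Fold changes of low genes depend on the pseudocount. Alternatives were DESeq2 1.42.0 or edgeR 4.0.16 fitted to the recovered reads, TMM scaling, other pseudocounts and filters, a replicate block, and each library left out. The code was tested on simulated reads that had the spread of the control libraries alone. That test does not cover a library that stands apart, as knockdown library 3 did. Coordinates and exonic lengths came from GENCODE M21 (GRCm38), which held 16812 of the gene identifiers, and promoter sequences from RefSeq (GRCm38.p6), where all 10 genes matched by symbol.

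Replicates were checked for duplication by chi-square divided by the number of genes, expected at 1 under sampling noise. It was 3.75 between the closest knockdown libraries (1 and 2) and 6.51 or more between controls. Between knockdown library 3 and knockdown libraries 1 and 2 it was 765 and 719, and between the groups 884 or more. All 6 libraries were kept as separate samples. The members, the lists and the motifs were chosen with earlier results of these data known. Named were all 10 genes, Adamtsl2, H19, Myod1, Myog, Myh3 and Ckm, the 2 genes nearest to each member, and in every pathway list the genes with the smallest adjusted p, at most 4 higher and 4 lower. Any further gene was picked with its values in view. 1 gene that this rule names is not reported here.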

Additional observations from a re-analysis of the deposited data

How the results depend on the processing

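Over 14 alternatives, Igf2, Igfbp2, Igfbp3, Igfbp4, Igfbp5 and Igfbp6 kept their direction and their call in each; Igf1 lost its call in 7 of 14 and Igf1r in 2 of 14. No log2 change turned round among the genes for which alternatives were run; they were not run for Adam9, Htra1, Irs1, Igf2bp1, Igf2bp3, Igf2os, Airn or markers other than Myod1, Myog, Myh3 and Ckm. Without knockdown replicate 3, Igf2r and Igfbp7 passed. Igf1 missed with edgeR on recovered reads (-0.82, adjusted p = 0.069, edgeR quasi-likelihood). The number of members called ran from 2 to 4 higher and 4 to 6 lower with 1 library left out, and was 3 higher and 4 lower with edgeR, 3 and 5 with DESeq2. Over all tested genes the counts with 1 library left out were 2443 to 6269 higher and 2648 to 6485 lower, and those of the other pathway genes 9 to 30 higher and 10 to 27 lower, each highest without knockdown replicate 3. edgeR called 3765 genes higher and 3579 lower, and DESeq2 4343 and 4118; the median log2 change of all genes was 0.11 with edgeR, against -0.0013 with limma. Over the settings of named genes outside the 10, 377 values kept their call and 29 lost it, among them Gsk3b (adjusted p = 0.0882, limma) and Akt1 (0.0526) with the replicate block.

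Whether the replicate numbers pair the libraries stayed undecided: same-numbered libraries deviated together with correlations of 0.0169, 0.105 and 0.143. Knockdown libraries 2 and 3 correlated best with the control library of the same number. Knockdown library 1 correlated best with control library 2 (0.116). With 3 libraries per group and knockdown library 3 standing apart, these correlations cannot decide it. With the replicate number as a block, 3 members were higher and 4 lower and 3010 and 3301 genes were called (3519 and 3823 without it); Igf1 had an adjusted p of 0.0574 (limma). The cause of these differences was not tested. Having 3 libraries per group and 86 reads of Igfbp2 limit what can be said of the lowest genes.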

Other observations

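The genes whose pattern over the 6 libraries was most like that of each member were found among 11069 genes whose mean reached 100, by the Euclidean distance between centred log2 values; a smaller distance is a closer pattern. This is a description over 6 libraries in 2 groups, so it mostly reflects the size of the group difference. Igfbp3 had no close neighbour: the nearest was Clec3b, which encodes tetranectin, at 0.896. Igfbp5 was nearest to Hephl1 (0.352), a ferroxidase of the hephaestin family, and to Pgm5 (0.393), a phosphoglucomutase-like protein of muscle adhesion sites. Igf2 was nearest to Ank1 (0.264), which encodes an ankyrin, and to Ccdc88c (0.283), an interactor of Dishevelled. Igf1r was nearest to Kmt2e (0.0617) and Prkd3 (0.0741), and Igfbp6 to Tprgl (0.065) and Blvrb (0.0802). The closest to Igf2r were Dvl3 (0.0843), a Dishevelled protein of Wnt signalling, and Stard13 (0.0904). Igfbp4 lay nearest to Lrrc28 (0.0789) and Ntn4 (0.0891), Igfbp7 to Slc1a5 (0.0918) and Pomgnt1 (0.108), Igf1 to Lactb (0.19) and Gnl3 (0.212), and Igfbp2 to Nusap1 (0.355) and Uqcrfs1 (0.379).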
